A study of Mus musculus with 12 samples.

Results

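The sites recovered with a non-specific IgG antibody from Rbm25-depleted and control mouse inner ear organoids were compared, to describe what an antibody without a target lists in each genotype. The deposited data hold 1 list of sites per library, and the IgG lists were depleted IgG 1, depleted IgG 2, control IgG 1 and control IgG 2. Sites of these 4 lists that shared 1 bp or more were merged into 701 regions assigned to 499 genes. The same merging over the IgG lists and the 4 lists of the RBM25 antibody gave 1548 regions. Of the 701 IgG regions, 147 in 128 genes were in both depleted lists and neither control list, 81 in 60 genes were in both control lists and neither depleted list, and 271 in 210 genes were in all 4. These 3 sets made up 21.0%, 11.6% and 38.7% of the regions. The other 202 regions (28.8%) lay in another combination of lists.

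Both genotypes were grown from cochlear epithelium of mice at postnatal day 1 to 2. Cells were expanded in Matrigel for 8 to 10 days with EGF, bFGF and IGF at 50 ng/mL and the GSK3 inhibitor CHIR99021 at 3.5 µM. They were then differentiated for 7 to 8 days with CHIR99021 at 3 µM and the gamma-secretase inhibitor LY411575 at 5 µM, followed by EGF and bFGF at 10 ng/mL for 9 to 10 days. Organoids of the depleted group received a lentivirus that knocks down Rbm25, and those of the control group, whose genotype is labelled WT, received a control lentivirus. The titles call the depleted group KO, but the treatment is a knockdown in a mixed culture, and the labels give neither the share of cells infected nor the remaining RBM25. Each genotype had 2 numbered IgG libraries. Nothing in the labels says that equal or different numbers stand for separate animals or cultures, so the p-values below measure only the spread between these libraries, which may be technical.

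In RNA immunoprecipitation an antibody on beads pulls a protein down together with the RNA bound to it. IgG from an unimmunised source has no target in the lysate, so its library is used as the measure of RNA that sticks to beads and antibody. RBM25 is an RNA-binding protein of the splicing machinery that associates with the U1 small nuclear ribonucleoprotein and with SR-type partners.

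Rbm25 itself had 0 sites in each of the 4 IgG lists. It had 2 sites in depleted IP 1 and 0 in depleted IP 2, control IP 1 and control IP 2, where IP stands for the RBM25 antibody. A list of sites holds no RNA level, so the depth of the libraries is unknown and how far the knockdown lowered Rbm25 was not analysed here. Depleted IP 2 stood apart with 165 sites, against 813 in depleted IP 1 and 594 and 593 in the control IP lists. For that reason shares found in IP lists are given for each list by itself.

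Some IgG regions ended within a few bases of an annotated gene start or held a whole annotated RNA, and these can be shown as sequence. The longer of 2 H19 regions in the control set, chr7:142576245-142577269, held the whole microRNA 675 hairpin at chr7:142577064-142577147 on the minus strand. H19 is a non-coding RNA and the host of this microRNA. In the mature sequences below the capitals mark the seed (bases 2 to 8), by which a microRNA recognises its targets.
microRNA 675 hairpin: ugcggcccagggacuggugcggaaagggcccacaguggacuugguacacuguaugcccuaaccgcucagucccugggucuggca
mmu-miR-675-5p: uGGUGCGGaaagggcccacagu
mmu-miR-675-3p: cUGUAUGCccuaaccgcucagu

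The next sequences show where a region met the start of its gene. Each has 30 bases around the upstream edge of the region, with the 10 bases before the edge in lower case and the first 20 bases inside it in capitals. Ftl1 and Fth1, the ferritin light and heavy chains, Sod1, the cytosolic superoxide dismutase, and Snu13, a spliceosomal protein listed as Nhp2l1, belonged to the depleted set. Lmna, the nuclear lamin A/C gene, and Hmgb1, a chromatin protein, belonged to the control set. Srsf7, an SR splicing factor, and Hist1h1e, a linker histone, belonged to all 4 lists. Ftl1, Fth1, Sod1, Snu13, Lmna and Hmgb1 were chosen for display after their values were seen.
Ftl1, chr7:45459867-45459896, minus strand: acccctccctCCGGAGGGTCAACATGCTAT
Fth1, chr19:9982651-9982680, plus strand: tcgcctgacgCAGGATCCCGCTATAAGTGC
Sod1, chr16:90220755-90220784, plus strand: ttttttgcgcGGTCCTTTCCTGCGGCGCCT
Snu13, chr15:82047579-82047608, minus strand: cgtcacttccGCTTCCTGCCGCTTCTGAAG
Lmna, chr3:88503367-88503396, minus strand: ttgggtacagGATGGCTCCTTTAAGAGCAG
Hmgb1, chr5:149051597-149051626, minus strand: ggagggcggaGAATCAATCCTGCCCGCGCG
Srsf7, chr17:80207284-80207313, minus strand: tcttccttgtAGTGCCGCCGGGATTGCAGG
Hist1h1e, chr13:23622539-23622568, minus strand: agcgccgcggCCCGAGTCCTGGCCAGTCCC

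The sequences are from RefSeq on GRCm38.p6. The edges of the Ftl1, Snu13, Hmgb1 and Hist1h1e regions fell on the annotated first base of the gene. Those of Srsf7, Sod1 and Fth1 lay 2, 3 and 15 bases inside it, and that of Lmna lay upstream of it. Regions that overlapped the first 50 bases of a gene were 10 of 108 in the depleted set (9.26%), 4 of 57 in the control set (7.02%), 8 of 228 in all 4 lists (3.51%) and 34 of 545 over all regions (6.24%), counted where the gene start could be looked up. Most IgG regions therefore lay elsewhere in their gene. By coordinates, 682 of 692 regions (98.6%) lay inside the GRCm38 interval of their assigned gene. The labels name the older build mm8, so the build was settled from this match. Exons and introns were not told apart because no genome annotation of exons was used here.

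Depleted organoids gave longer IgG lists. Depleted IgG 1 and 2 held 498 and 511 sites in 374 and 378 genes, while control IgG 1 and 2 held 442 and 430 sites in 327 and 318 genes. The means were 504.5 ± 9.19 sites in depleted lists and 436.0 ± 8.49 in control lists (SD, n = 2 each), a difference of 68.5 sites in an exact two-sided permutation test (p = 0.333, the smallest that 2 libraries against 2 allow). For genes the means were 376.0 ± 2.83 and 322.5 ± 6.36 in depleted and control lists (SD, n = 2 each), a difference of 53.5 genes in the same exact test (p = 0.333). The groups did not overlap in either count, and the test cannot pass 0.05 in this design. Among sites of 100 bp or more the difference in sites was 15.5, and among sites with a false discovery rate under 100% it was 215.5.

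The authors' false discovery rate also separated the genotypes. A rate of 100%, the highest value of this column, stood beside 45.6% and 43.8% of the sites of depleted IgG 1 and 2, and beside 84.2% and 86.7% of those of control IgG 1 and 2. The depleted lists averaged 44.7% ± 1.24 and the control lists 85.5% ± 1.83 (SD, n = 2 each), a difference of -40.7 percentage points in the exact permutation test (p = 0.333). The lowest rate in a list was 8.33% and 9.01% in depleted IgG, and 23.66% and 26.88% in control IgG. Sites were narrower in depleted lists, with medians of 133 and 129 bp, than in control lists, with medians of 162 and 160 bp (exact permutation p = 0.333).

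Replicate lists of one genotype overlapped more than lists of different genotypes. Of the sites of depleted IgG 1, 95.4% met a site of depleted IgG 2, and 93.0% the other way round. In control organoids 81.2% of the sites of replicate 1 met a site of replicate 2, and 83.5% the other way round. Between genotypes, 58.1% to 62.4% of depleted sites met a control site and 68.8% to 72.2% of control sites met a depleted site. Boundaries were identical in the lists that defined the set for 145 of 147 regions of the depleted set, 52 of 81 of the control set and 188 of 271 of those in all 4 lists. Of these 271, 268 had identical boundaries in the depleted lists and 242 in the control lists. It is not known whether replicate lists were called independently, so their overlap need not measure agreement between separate calls.

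**Figure D1:**
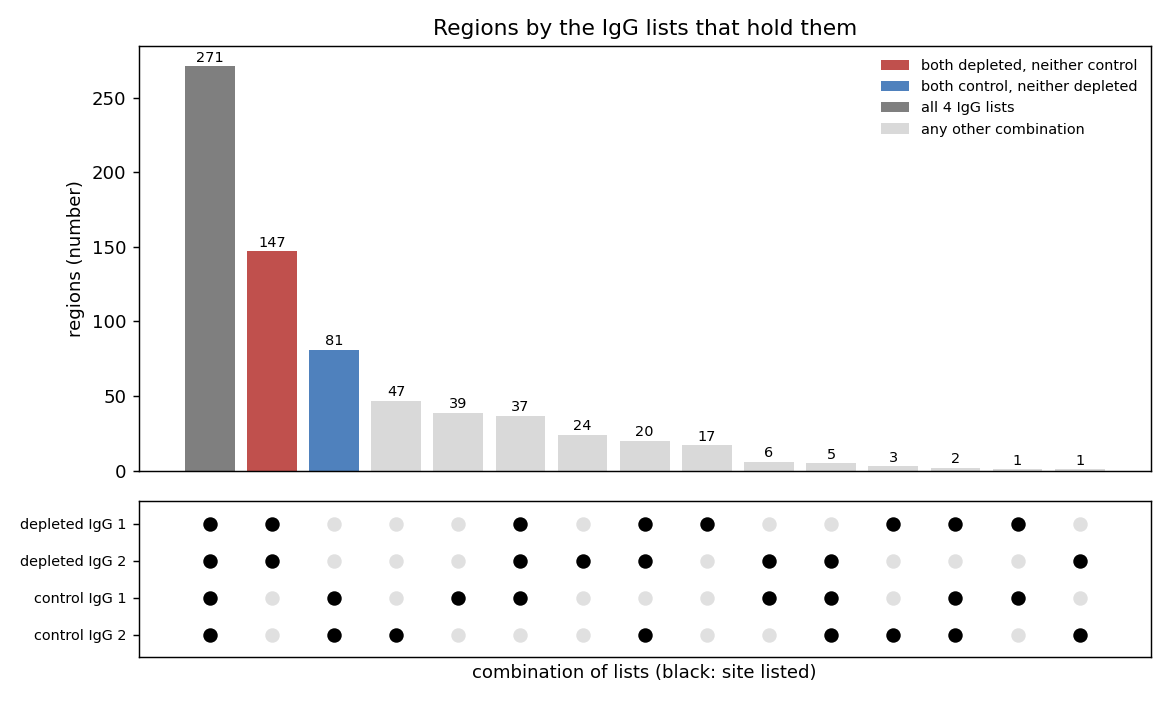
Number of regions (vertical axis) for each combination of the 4 IgG lists; black dots below a bar name the lists with a site there. The combinations with the most regions were all 4 lists with 271, both depleted lists with 147 and both control lists with 81.

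The size of the sets depended on the sites admitted and on the number of lists used. Leaving out a list drops a condition on membership, so larger sets then follow from the rule. Without control IgG 1 the control set had 128 regions in place of 81, and without control IgG 2 it had 120. Cutting all lists to the length of the shortest, by score, gave 100 depleted-set, 89 control-set and 252 shared regions. Counting only sites with a false discovery rate under 100% gave 209 regions in the depleted set, 17 in the control set and 38 in all 4 lists. This setting dropped 84.2% and 86.7% of the sites of control IgG 1 and 2. A region listed at 100% in control IgG then counted as absent there, so the 209 can include regions listed in both genotypes. By gene, 106 genes (21.2%) had sites in both depleted lists and neither control list, 53 (10.6%) in both control lists and neither depleted list, and 213 (42.7%) in all 4 lists. The sets by region and by gene differ where a gene had separate sites in each genotype: 22 regions of the depleted set and 10 of the control set lay in a gene with a site of the other genotype elsewhere.

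In the depleted set, 19 of 128 genes had more than 1 region. The values that follow are the authors' fold of the site over the background of their caller, for replicate 1 and then replicate 2. Folds were used within a list and were not tested between lists. Ibtk, an inhibitor of Bruton's tyrosine kinase, had 2 regions, with folds of 2521 and 3880 at chr9:85708119-85708172 and of 2006 and 1286 at chr9:85710376-85710440. Both had the lowest false discovery rate of their list in both replicates, and neither was listed with the RBM25 antibody in any library.

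The highest single fold of the depleted set was in Rpl36al, a ribosomal protein gene, at chr12:69182865-69183161 (8928 and 1077). Slc12a5, a neuronal potassium-chloride cotransporter, had folds of 1254 and 918 at chr2:164998488-164998846, beside other sites of this gene in all 4 lists. Fam20c, a kinase of secreted proteins, had 842 and 743 at chr5:138809297-138809589. These sites too had the lowest rate of their list in both depleted libraries and no IP site.

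Eef1a1, the translation elongation factor, had 2 regions with folds of 68.0 and 65.0 and of 162 and 157. Rps12, a small ribosomal subunit protein, had 93.8 and 59.1 at chr10:23785272-23785606, within 100 bp of the gene end. Together with a predicted mitochondrial gene, Ibtk, Rpl36al, Slc12a5, Fam20c, Eef1a1 and Rps12 made up the 9 regions of the depleted set that had the lowest rate in both depleted lists. Eef1a1, Rpl36al and Rps12 belong to families with near-identical copies in the genome, and how the authors assigned reads shared by copies is not given in the sources used here.

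Other genes had 2 regions as well. Snx27, an endosomal sorting nexin, had folds of 111 and 252 in one region and of 139 and 66.9 in the other. Cc2d2a, a protein of the ciliary transition zone, had 66.7 and 144 in its stronger region, and Ranbp3, a nuclear export cofactor, had 146 and 29.7. Mitd1, a cytokinesis protein, had 91.0 and 126. Snx27, Cc2d2a, Ranbp3 and Mitd1 were also listed at both regions in depleted IP 1 and in no other IP list.

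Akap11, an anchor of protein kinase A, had folds of 44.5 and 74.3 and of 38.9 and 108. Ndufv3, a subunit of respiratory complex I, had 34.7 and 55.8 at the gene start and 27.8 and 90.2 farther in. Vta1, a cofactor of the ESCRT machinery, had 27.8 and 55.8 at both of its regions. All of these had a rate of 100% in both depleted lists and a site in depleted IP 1.

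Aldh2, the mitochondrial aldehyde dehydrogenase, had IgG folds of 55.6 and 24.5 in its stronger region. Both of its regions were listed in control IP 1 and control IP 2 and in neither depleted IP list.

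Of the genes with 1 region, those of highest mean fold were Rsph3b (291 and 343), Crybb3, a lens beta crystallin (255 and 289), Ccdc149 (200 and 216), Ddx39b, an RNA helicase of mRNA export (169 and 217), and Wdfy4 (182 and 180). Rsph3b and its near-identical neighbour Rsph3a (189 and 112), radial spoke proteins of motile cilia, were listed in both control IP lists and in depleted IP 1. Crybb3 and Ddx39b were in no IP list. Ccdc149 and Wdfy4 were in depleted IP 1 alone, with IP folds of 12208 and 9846.

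In the control set, 9 of 60 genes had more than 1 region, and collagens led. Col1a1, the alpha 1 chain of collagen I, had 8 regions between chr11:94936230-94936444 and chr11:94951473-94952102. Its folds in control IgG 1 and 2 were 193 and 299 in the first of these, 277 and 269 in the region chr11:94946275-94946382, and 66.0 and 52.7 in the last. Col3a1, the chain of collagen III, had 6 regions, with 132 and 159 at chr1:45342123-45342230 and 22.6 and 17.8 at chr1:45348601-45348878. Neither gene had a site in a depleted IgG list.

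Col5a1, a collagen V chain, had 2 regions, with folds of 55.6 and 101 and of 18.7 and 123. Col1a2, the partner chain of Col1a1, also had 2, with 28.2 and 21.8 and with 23.5 and 16.9. Summed over Col1a1, Col1a2, Col3a1 and Col5a1, a family put together after the values were seen, there were 0 sites in each depleted IgG list and 22 in each control IgG list. The RBM25 antibody listed 2 and 0 sites of these genes in depleted IP 1 and 2, and 1 and 2 in control IP 1 and 2. Of their 26 IgG regions, 18 were in the control set. A false discovery rate of 100% was given to 19 of the 22 sites in control IgG 1 and to all 22 in control IgG 2.

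Ahnak, a very large scaffold protein of the cell cortex, had 4 regions in the control set, with folds of 34.3 and 56.2, 25.7 and 32.4, 17.6 and 25.3, and 58.6 and 22.5. The regions were 596 to 1163 bp wide, against a median of 226 bp over the control set, 141 bp over the depleted set and 134 bp over all 4 lists. Ahnak had no site in any depleted IgG list or in any IP list.

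Keratins of stratified epithelium, singled out after their values were seen, were listed mainly in control IgG. Krt10 had folds of 704 and 412 at chr11:99386531-99386748, and Krt1, its partner, had 2 regions with 69.2 and 78.6 and with 173 and 213. Krt5 (80.8 and 101) and Krt15 (115 and 89.8) had 1 region each in the set. Over all keratin genes there was 1 site in each depleted IgG list, in the simple-epithelial keratin Krt18, against 5 and 9 sites in control IgG 1 and 2. A false discovery rate of 100% was given to 4 of the 5 and 8 of the 9, and to the 1 site in each depleted list. The RBM25 antibody listed 0 and 2 keratin sites in depleted IP 1 and 2, and 2 in each control IP list. Asprv1, a protease of the cornified epidermis (92.3 and 67.3), and Klf4, a transcription factor of epithelial differentiation (69.2 and 56.1), were in the control set as well, again named after their values were seen.

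The control-set sites with the lowest rate of both control lists were 6 regions in 6 genes. Capza2, a subunit of the actin capping protein, had the highest mean fold of these, with 796 and 664 at chr6:17666146-17666416. Fau, which encodes a ribosomal protein fused to a ubiquitin-like domain, had 458 and 682 at chr19:6059349-6059385. Otog, which encodes otogelin of the tectorial membrane, had 351 and 212 at chr7:46310058-46310375.

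Col27a1 (156 and 188), Rsrp1 (144 and 151) and Dhrs3, a retinaldehyde reductase (69.2 and 85.5 in the stronger of 2 regions), completed the group. None of these 6 regions had a site in any IP list, and of the whole control set 65 of 81 regions had none. Atp10a, a phospholipid flippase, had the same pair of folds, 415 and 247, at both of its regions, and Hid1 had 308 and 185. In H19 the region that held the microRNA 675 hairpin had folds of 58.6 and 86.4 and the second region 35.2 and 94.8. Trappc10, a vesicle tethering protein (138 and 33.5), and Gpc3, a glypican whose region lay at the gene start (115 and 53.9), followed.

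**Figure D2:**
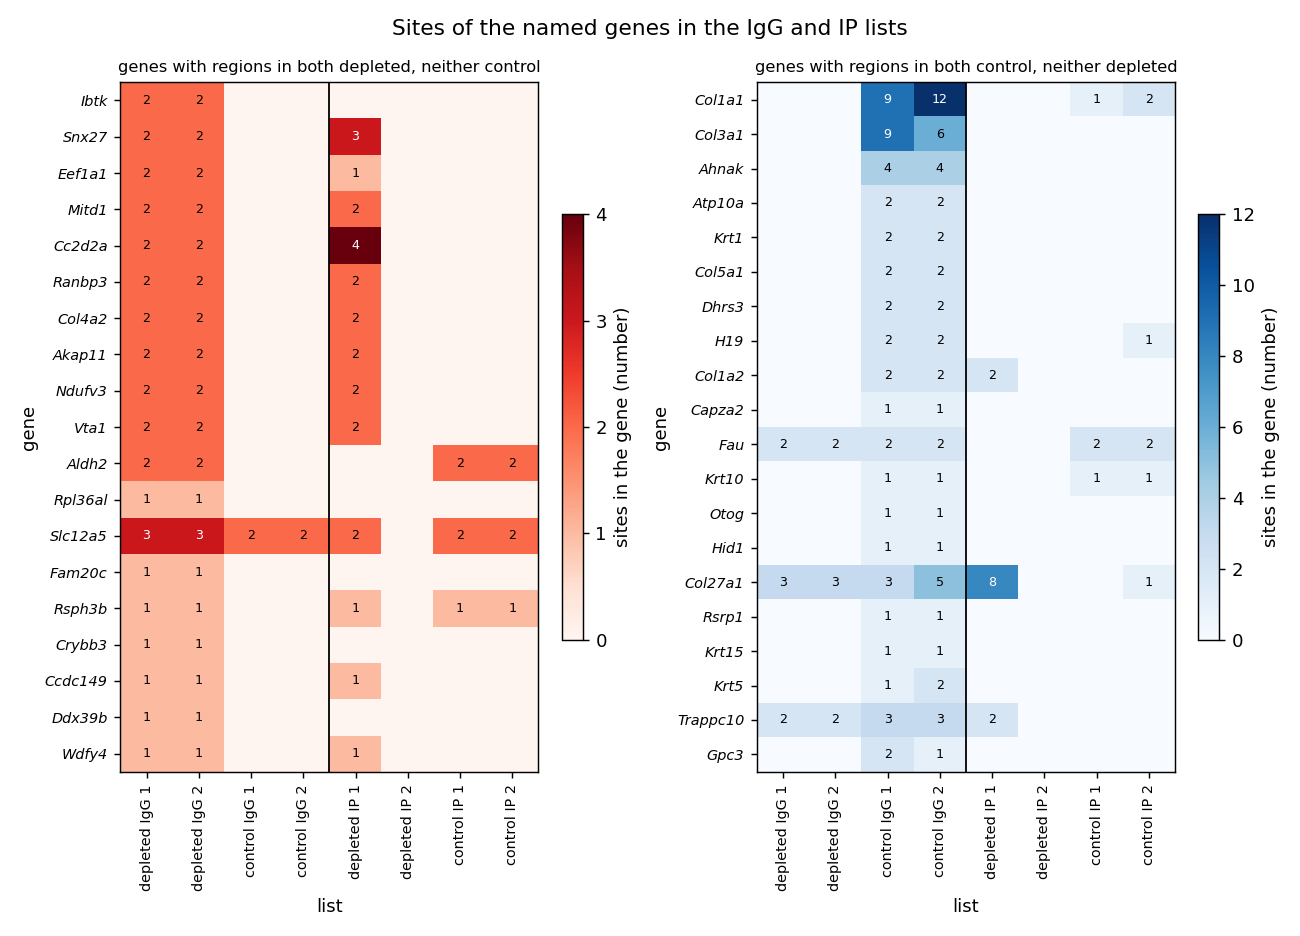
Sites per gene (colour and printed number, empty for 0) in the 4 IgG lists and the 4 RBM25 IP lists, for genes with the most regions or the highest fold in the depleted set (left) and the control set (right). Col1a1 had 0 sites in both depleted IgG lists and 9 and 12 in the control IgG lists, and Slc12a5, Fau, Col27a1 and Trappc10 had sites in all 4 IgG lists.

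By gene list, the collagen genes were spread over both genotype sets. Of 10 collagen genes with an IgG site, 4 had a region in the depleted set, 5 in the control set and 3 in all 4 lists. Over all 499 genes these counts were 128, 60 and 210. The depleted set held 5 collagen regions, in Col4a2 of basement membranes (2 regions, 22.2 and 144 in the stronger), Col9a2 (9.92 and 7.80), Col9a3 (10.1 and 13.5) and Col11a2 (8.92 and 7.55). The control set held 19, in Col1a1, Col1a2, Col3a1, Col5a1 and Col27a1. Collagens IX and XI are chains of cartilage-type fibrils and of the tectorial membrane. Summed over them, after their values were seen, there were 7 and 9 sites in depleted IgG and 4 and 3 in control IgG.

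The mesenchyme markers with an IgG site lay on the control side, and most of their regions are the collagen regions described above. Of 6 mesenchyme genes with an IgG site, 4 had regions in the control set (Col1a1, Col1a2, Col3a1 and Fn1, 17 regions), against 60 of all 499 genes. In either depleted list 0 of the 6 had a site, against 374 and 378 of all genes in depleted IgG 1 and 2. Twist1, a mesenchymal transcription factor, was in control IgG 1 alone (41.7) and Twist2 in control IgG 2 alone (44.9). The list held 5 genes in each control IgG list, 3 in depleted IP 1, 0 in depleted IP 2 and 2 in each control IP list. In these bulk samples fewer cells of a type and less RNA per cell cannot be told apart. Cell makeup was not measured, and its part in the collagen regions was not tested.

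Markers of the labelled cell types were scarce in IgG. Of the hair cell list only Barhl1, a homeobox gene, had an IgG site, in all 4 lists, with folds of 455 and 256 in depleted IgG and 158 and 269 in control IgG. Of the supporting cell list only Otog did, in the control set, while Sox2, Lgr5, Atoh1 and Myo7a had none. Among the lists of other cell types, the glial gene Sox10 had 1 site in depleted IgG 1 (4.76), the immune gene Lyz2 had 1 in control IgG 1 (46.2), and the neuron and the endothelial and melanocyte lists had 0 genes. IgG sites show which RNAs were recovered and do not measure expression, so these counts neither bear out nor contradict the labelled tissue. The epithelial adhesion gene Epcam, named after its values were seen, had 2 regions in all 4 lists, with 63.5 and 45.7 in depleted IgG and 14.1 and 15.5 in control IgG in the stronger.

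More ribosomal protein genes were listed in depleted IgG. All 9 genes of the list with an IgG site were in each depleted IgG list, against 5 and 3 in control IgG 1 and 2, while all genes with a site numbered 374 and 378 in depleted IgG against 327 and 318 in control IgG. Of the 9, 6 had a region in the depleted set, where 128 of all 499 genes had one. They were Rps12, Rpl37a (16.7 and 29.7), Rplp2 (23.4 and 12.4), Fau (7.22 and 18.4), Rpl26 (12.9 and 7.76) and Rpl4 (3.87 and 3.14, the lowest folds of the set). By gene, 4 of the 9 had sites in both depleted lists and neither control list, against 106 of all 499. Rpl37a and Fau had control IgG sites as well. Fau also had the only ribosomal region of the control set, farther along the same gene than its depleted-set region. Rpl13a and Rpl18 were in all 4 lists. Rpl36al, described above, was left off the list by its rule on like genes and had 1 site in each depleted IgG list and 0 in each control IgG list. The RBM25 antibody listed 18 and 3 ribosomal protein genes in depleted IP 1 and 2, against 8 and 7 in control IP 1 and 2.

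Splicing factor genes with an IgG site lay in the depleted set, in all 4 lists or in other combinations. Over all 499 genes, 128 had a region in the depleted set and 210 in all 4 lists. Of 12 with an IgG site, 3 had a region in the depleted set: Rbm39, a splicing regulator with 2 regions (9.88 and 19.8, and 18.1 and 22.3), Luc7l2, a partner of the U1 particle (9.72 and 26.02), and Ddx5, an RNA helicase (5.26 and 5.29). In the control set there were 0, where 60 of all 499 genes had a region. By region, 6 of the group were in all 4 lists: Srsf2, Srsf7, Acin1, Qk, Snrnp70 and Luc7l2. The other 4 genes had regions in other combinations of lists only: Prpf38b was in both depleted lists and control IgG 1, Prpf40b in both depleted lists and control IgG 2, Ccnl2 in depleted IgG 2 alone and Hnrnpd in control IgG 1 alone. One Srsf2 region had the highest mean fold of these over the 4 lists, with 168 and 74.2 in depleted IgG and 66.0 and 40.1 in control IgG, although Srsf7 (96.1) and Acin1 (75.5) were above it in depleted IgG 2. Both shared Srsf2 regions were listed in depleted IP 2, with 108 and 224, and in no other IP list.

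Of 9 histone genes with an IgG site, 1 had a region in the depleted set, 4 in the control set and 1 in all 4 lists, and 3 had regions in other combinations only. Over all 499 genes, 128 had a region in the depleted set, 60 in the control set and 210 in all 4 lists. The core histone genes Hist2h2ac (10.6 and 10.7), Hist1h2ab (7.12 and 4.84), Hist1h2ap (4.06 and 4.45) and Hist2h2aa1 (3.42 and 3.31) were in the control set. Summed over H2A genes, a family chosen after its values were seen, there were 0 sites in each depleted IgG list, 5 in each control IgG list and 0 in each IP list. All 5 in each control IgG list had a false discovery rate of 100%, and the folds of Hist2h2aa1 were the lowest of the control set. The H2A genes are near-identical copies, so the assignment among them is uncertain. The linker histone Hist1h1c was in the depleted set (19.5 and 12.01), and Hist1h1e was in all 4 lists. The core histone gene H3f3a was in depleted IgG 1 alone, Hist1h2ai in control IgG 1 alone and Hist1h2ad in control IgG 2 alone.

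The remaining lists gave few members. For comparison, 128 of all 499 genes had a region in the depleted set, 60 in the control set and 210 in all 4 lists. Of 6 ubiquitin ligase genes, Cul9 (109 and 33.5), Ubr4 (83.4 and 50.2) and Nedd4l (16.3 and 8.92) had a region in the depleted set and 0 in the control set, while Itch, Klhl20, Rnf111, Ubr4 and Nedd4l had regions in all 4 lists. Of 5 cilium genes, Rsph3a and Rsph3b were in the depleted set, and Kiz, a centrosome protein, and Ptk7, a planar polarity receptor, were in all 4. Of 5 long scaffold genes, Ahnak and the desmosome gene Dsp (13.5 and 19.7) were in the control set and 0 in the depleted set. Of the other matrix genes, the laminin chain Lamb2 (7.41 and 8.92) was in the depleted set, and fibronectin Fn1 (21.1 and 39.3) and versican Vcan (27.01 and 25.3) were in the control set.

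Of 4 chromatin regulators, Arid2 was in the control set (6.28 and 12.2), where 60 of all 499 genes had a region. Chd7, Kmt2c and Nrip1 were in all 4 lists, where 210 of all genes had one. The Wnt genes Axin2 and Fzd1 and the apoptosis gene Bax were in all 4 lists too. The Notch and cell cycle lists had 0 genes in any IgG list.

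**Figure D3:**
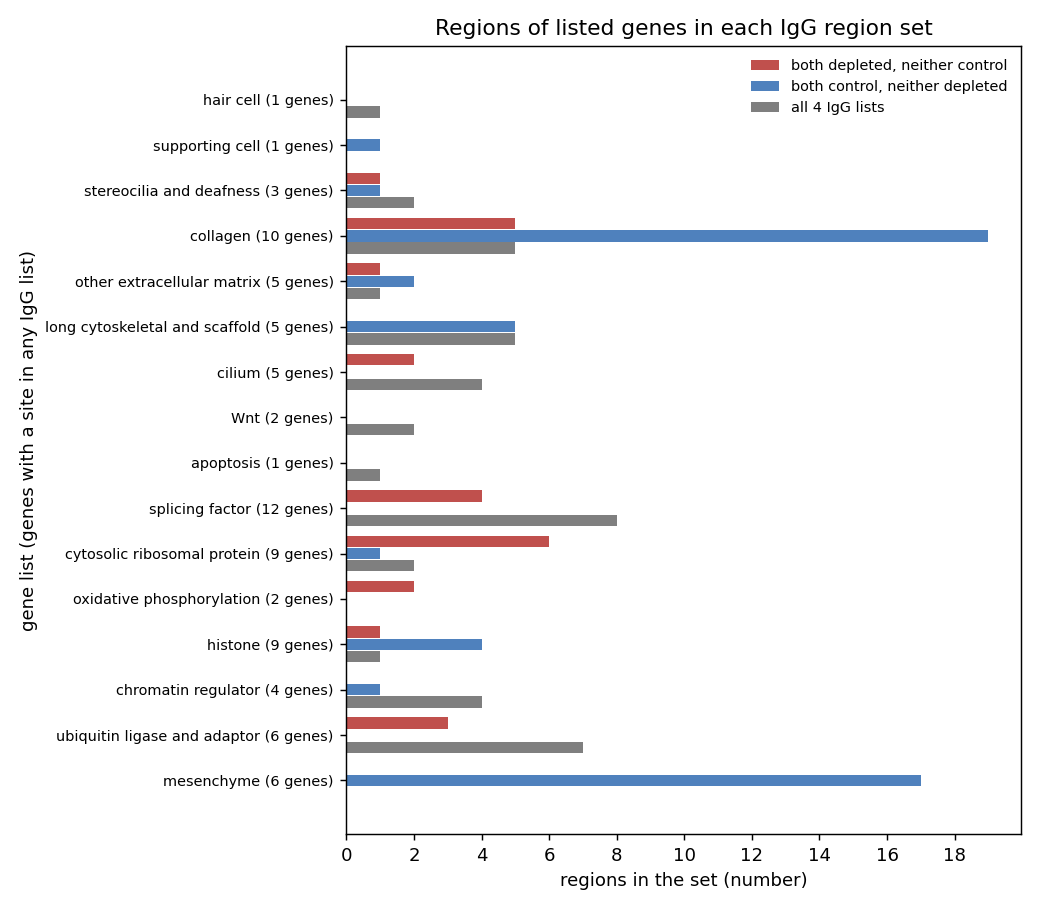
Number of regions (horizontal axis) of each gene list in the depleted set, the control set and all 4 IgG lists; the number of genes with an IgG site is in brackets, and lists with no region in the 3 sets are left out. Collagens had 5 regions in the depleted set and 19 in the control set, and mesenchyme genes, most of whose regions are the same collagens, had 0 and 17.

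The IP lists were not used to make the sets and were looked up next. The share of a set with a site in an IP list carries a 95% Clopper-Pearson interval, which covers the counting of regions only. Of the depleted set, 72.1% (64.1 to 79.2%, 106 of 147) had a site in depleted IP 1 and 2.04% (3 of 147) in depleted IP 2, and 21.1% (14.8 to 28.6%, 31 of 147) in each control IP list. The last share was 70.8% in each control IP list when sites at a false discovery rate of 100% were left out of the IgG lists (209 regions). Those 209 can include regions that control IgG lists at a rate of 100%. Of the control set, 9.88% (8 of 81) had a site in depleted IP 1, 1.23% (1 of 81) in depleted IP 2, and 6.17% and 11.1% (5 and 9 of 81) in control IP 1 and 2. Of the regions in all 4 IgG lists, 70.1% (190 of 271) were in depleted IP 1, 1.48% (4 of 271) in depleted IP 2, and 63.5% and 64.6% (172 and 175 of 271) in control IP 1 and 2. Over all 701 regions the shares were 56.9% in depleted IP 1, 1.43% in depleted IP 2, and 35.0% and 35.9% in control IP 1 and 2.

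The control set lay mostly outside the IP lists when sites were merged at 1 bp. In it 65 of 81 regions (80.2%, 69.9 to 88.3%) had no site in any IP list, against 14 of 147 (9.52%, 5.31 to 15.5%) in the depleted set, 22 of 271 (8.12%, 5.16 to 12.03%) in all 4 lists and 24.8% over all regions. With only IgG sites of identical start and end counted as shared, 41.9% of the control set (44 of 105) had no IP site, and its shares were 43.8% in depleted IP 1 and 30.5% and 33.3% in control IP 1 and 2. Under that rule a region listed in both genotypes with different boundaries can count as control only. Boundaries were identical in 188 of the 271 regions in all 4 lists, so the 105 can include shared regions. Each of these shares rests on single lists, with no test between genotypes. Control IP lists and depleted IP 1 differ in length, and the part of list length in these shares was not tested.

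The depleted set divided into classes by IP list. In the largest, 102 regions in 88 genes were in a depleted IP list and no control IP list, and 25 regions in 23 genes were the reverse. The order differed without IgG sites at a rate of 100%: 42 regions were in a depleted IP list only, 56 in a control IP list only and 92 in both. That setting counts regions listed at 100% in control IgG as absent there, so its regions are not the same set. Among the 23 genes with regions in a control IP list only were Aldh2, Ftl1 (IgG folds 4.37 and 11.6), Rpl37a, Col11a2 and Eya1, an inner ear transcription factor gene (33.3 and 18.6). The ferritin genes differed here. Ftl1 was listed with the RBM25 antibody in both control libraries (67.0 and 88.1) and Fth1 in depleted IP 1 (269), although both had IgG sites at their gene starts in both depleted libraries and neither control library. Eya1, Ftl1 and Fth1 were named after their values were seen.

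The 14 depleted-set regions in no IP list lay in 12 genes, and 7 of them had the lowest rate of their list in each depleted library. They were Ibtk, Rpl36al, Slc12a5, Fam20c, Crybb3, Ddx39b, Rps12, Eef1a1, Pabpc1, the poly(A)-binding protein (7.02 and 6.97 in the stronger of 2 regions), Maf, Spint2 and Srxn1, the last 4 named after their values were seen. Of the whole depleted set, by comparison, 78.2% and 72.8% of the sites had a rate of 100% in depleted IgG 1 and 2.

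**Figure D4:**
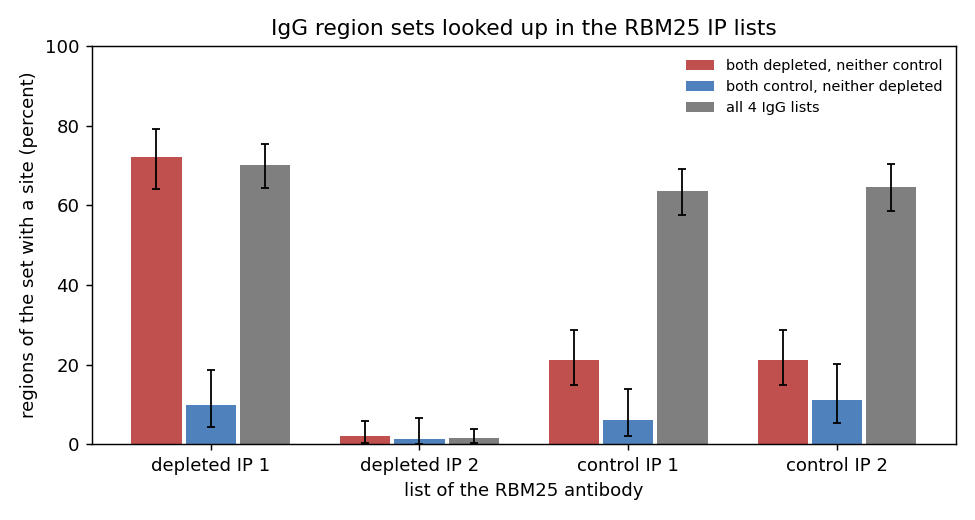
Percent of each IgG region set (vertical axis) with a site in each list of the RBM25 antibody, with 95% Clopper-Pearson intervals. In depleted IP 1 the depleted set was at 72.1% and the control set at 9.88%, and in depleted IP 2 all 3 sets were at 2.04% or less.

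The 271 regions in all 4 lists carried higher scores than the regions of one genotype. This order can follow in part from the rule, since a shared region had to be listed in 4 lists and the others in 2. The score is -10 times the log10 of the caller's p. Its median in this set was 522 and 518 in depleted IgG 1 and 2, and 288 and 275 in control IgG 1 and 2. In the depleted set it was 152 and 159 in the depleted lists, and in the control set 164 and 149 in the control lists. The rate was 100% for 19.2% and 17.0% of the shared regions in depleted IgG, and for 81.5% and 84.5% of the same regions in control IgG. In this set the gap in rate between genotypes stood at common sites.

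Of the 210 shared genes, 58 had more than 1 region. Usp7, a deubiquitinase, Gucy2f, a photoreceptor guanylate cyclase, and Rarg, the retinoic acid receptor gamma, had 3 each. In Rarg the strongest region, chr15:102252585-102252744, had folds of 167 and 334 in depleted IgG and 28.1 and 46.4 in control IgG. In Gucy2f the strongest, chrX:142196778-142196882, had 218 and 234 in depleted IgG and 115 and 63.2 in control IgG. Both were also in depleted IP 1 and in both control IP lists.

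Among the shared regions 2 groups were picked by the false discovery rate in the lists of one genotype. Higher folds in those same lists follow in part from this choice. In the first, 17 regions in 14 genes had the lowest false discovery rate of both depleted lists. Cmip, a signalling adaptor, had 220297 and 43353 in depleted IgG at chr8:117447400-117447448, against 361 and 215 in control IgG. Optn, the autophagy receptor optineurin, had 45127 and 205996 in depleted IgG at chr2:5020777-5021057, against 484.5 and 74.2 in control IgG. Atp7a, a copper transporter, had 39288 and 15425 in depleted IgG, against 188 and 114 in control IgG.

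The same group held genes with more than 1 such region. Mical3, a monooxygenase that acts on actin, had 14759 and 29045 in depleted IgG, against 24.6 and 42.1 in control IgG, in the region of higher mean. Trip12, a ubiquitin ligase, had 15758 and 4355 in depleted IgG, against 35.2 and 28.5 in control IgG. Galnt7, a mucin-type glycosyltransferase, had 4157 and 11182 in depleted IgG, against 28.6 and 10.5 in control IgG. In each of Mical3, Trip12 and Galnt7 both regions had this pattern.

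Usp7 did so in 1 region of 3, with 10028 and 14185 in depleted IgG and 10.99 and 10.37 in control IgG. Spg20, which encodes spartin, had 11564 and 5610 in depleted IgG and 28.1 and 22.4 in control IgG. Hspg2, the basement membrane proteoglycan perlecan, had 1656 and 2923 in depleted IgG and 15.6 and 16.9 in control IgG. Of the 17 regions, 11 had a rate of 100% in both control lists and 9 were in no IP list. Among all 271 shared regions, 81.5% and 84.5% had a rate of 100% in control IgG 1 and 2, and 22 were in no IP list.

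In the second group, 28 regions in 20 genes had the lowest rate of both control lists. Nwd2 had 2640 and 2506 in depleted IgG at chr5:63804371-63804553, against 164547 and 179556 in control IgG. Vmp1, an autophagy protein, had 692 and 446 in depleted IgG at chr11:86635233-86635306, against 49504 and 52905 in control IgG. Trappc10 had 346 and 325 in depleted IgG in its stronger region, against 22843 and 15775 in control IgG.

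Other members had the same order. Itch, a ubiquitin ligase, had 692 and 112 in depleted IgG in its stronger region, against 23343 and 3976 in control IgG. Col27a1, a fibrillar collagen of cartilage, had 619 and 247 in depleted IgG, against 14765 and 9322 in control IgG. Nrip1, a nuclear receptor corepressor, had 192 and 136 in depleted IgG, against 14649 and 13239 in control IgG.

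Lrrfip1 had 108 and 240 in depleted IgG, against 9866 and 18618 in control IgG. Polb, the repair DNA polymerase beta, had 92.6 and 37.2 in depleted IgG in the region of higher control fold, against 13117 and 4265 in control IgG. Naa50, an N-terminal acetyltransferase, had 157 and 99.9 in depleted IgG, against 4697 and 15740 in control IgG. Kdm7a, a histone demethylase, had 472 and 42.7 in depleted IgG, against 14872 and 2989 in control IgG. Of the 28 regions, 18 were in depleted IP 1, 4 in a control IP list and 10 in no IP list. Among all 271 shared regions, 190 were in depleted IP 1, 172 and 175 in control IP 1 and 2, and 22 in no IP list.

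Both groups shared 2 regions, in Cpsf7 and Nwd2. Counted by size, 15 shared regions had a fold above 1000 in both depleted lists and 25 in both control lists, with 1 region, in Nwd2, in both counts. The fold is a ratio against a background that is not given in the sources used here, so its size was not tested between genotypes. The folds are set side by side here, and the plot of folds shows them for each region.

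**Figure D5:**
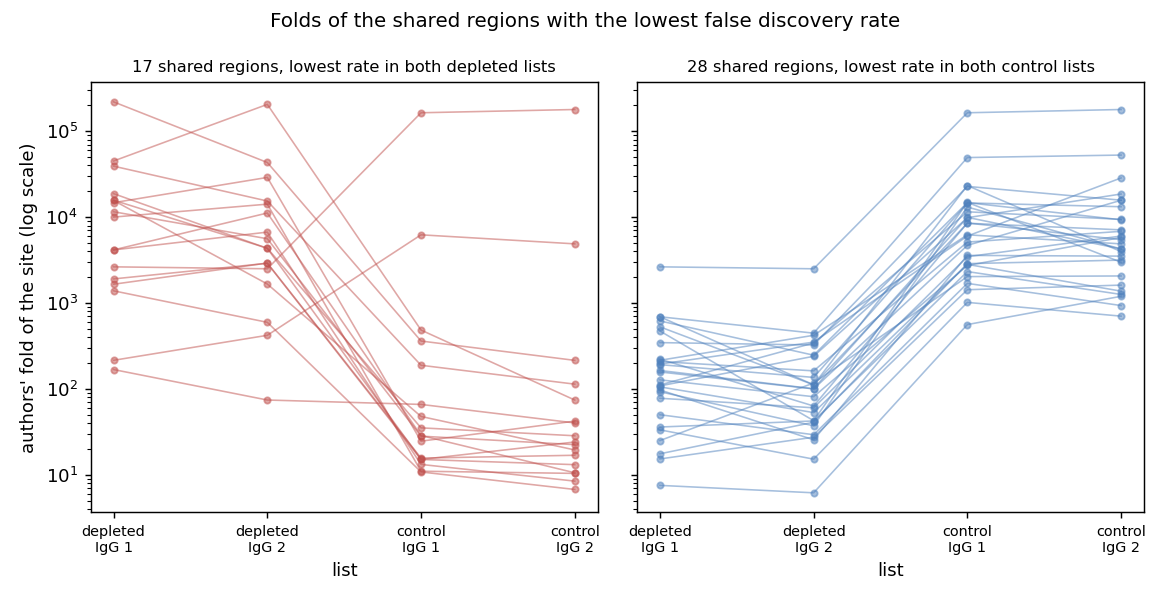
The authors' fold (vertical log axis) in the 4 IgG lists for the shared regions with the lowest false discovery rate in both depleted lists (left, 17 regions) and in both control lists (right, 28 regions); each line is 1 region. Apart from Nwd2 and Cpsf7, which are in both panels, the left panel is higher in the depleted lists and the right panel in the control lists. This order follows in part from choosing each panel by the rate in those lists.

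Equal folds recurred within a list. In depleted IgG 1 the value 72.83 was given to 19 sites and in depleted IgG 2 the value 22.3 to 14, while in control IgG 1 the value 17.59 was given to 13 and in control IgG 2 the value 16.86 to 16. Sites that tied with a site of another gene numbered 325 and 294 in depleted IgG and 201 and 221 in control IgG. A fold such as that of Maf (72.83) or Nhp2l1 (72.83) in depleted IgG 1 is therefore a value common to many sites of that list and sets no order among them.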

How the data were processed

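RNA immunoprecipitation with IgG or an RBM25 antibody was sequenced from mouse inner ear organoids, and the deposited file of each library is a list of sites on mRNAs. The tools cutadapt 1.9.3 and HISAT2 2.0.4 are named, with the build mm8, in the submitters' processing notes. Peak names in the deposited lists begin with MACS, while its version and background library were not given in the sources used here. The score is, per the file headers, -10 times the log10 of the caller's p, and the lowest deposited scores were 50.57 and 51.13 in depleted IgG 1 and 2 and 50.17 and 50.05 in control IgG 1 and 2. The fold enrichment is the authors' ratio per site, the false discovery rate is the authors' value in percent, and width was deposited in bp. Each library has its own list, but whether replicate lists were called independently is not given in the sources used here. A missing site means only that none was listed.

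Sites sharing 1 bp or more were merged with Python 3.11.15 and pandas 2.3.3, and merging was tested on simulated lists. Starts, counted from 0 in the lists, are printed counting from 1. Numbers of sites and genes and the share at a rate of 100% were compared by an exact permutation test (SciPy 1.17.1). Alternatives were other overlaps, genes for regions, stricter sites, lists of equal length and leaving out each library. A further alternative, chosen after seeing the data, looked these sets and their classes up in the IP lists. The 4 lists labelled Input were not used.

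Named for each set were the 12 genes with the most regions, the 8 further genes with the highest mean fold and up to 4 members of each of 22 gene lists, without predicted names; 1 named gene is not reported here. The members and lists were chosen with earlier results of these data known. Same-numbered depleted and control lists shared 311 and 297 regions and lists of different number 296 and 319, so the numbers were not taken to pair the libraries.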

Additional observations from a re-analysis of the deposited data

How the results depend on the processing

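The counts of regions depended on which sites were admitted, and the cause was not tested beyond the smaller or larger number of sites each setting leaves. With 147 regions in the depleted set, 81 in the control set and 271 in all 4 lists as reported, sites with identical start and end gave 224 in the depleted set. Genes in place of regions gave 53 in the control set. The upper part of each list by fold, from its median, gave 74 in the depleted set, 50 in the control set and 94 in all 4 lists. Sites with a false discovery rate under 100% gave 17 in the control set and 38 in all 4, and sites of 100 bp or more gave 87 in the depleted set and 166 in all 4. Leaving out each library in turn gave 164 to 184, 83 to 128 and 273 to 308 in the 3 sets, the 128 without control IgG 1. This rise follows from the rule, since leaving out a list drops a condition on membership. The difference in sites then ran from 62.0 to 75.0 and that in genes from 49.0 to 58.0, depleted minus control, and the difference in the share at a rate of 100% from -42.0 to -39.5. With the replicate block (permutation within same-numbered pairs) the differences of 68.5 sites, 53.5 genes and -40.7 percentage points were the same and the exact p was 0.5, the smallest that pairing allows. For these set sizes and differences, 43 alternative values kept the direction and 10 did not. For counts of regions, keeping it meant staying within 1.5 times the reported count. Lists cut to the length of the shortest by score are among the 43, with 100 depleted-set, 89 control-set and 252 shared regions. The depleted and control sets were then much closer in size than the reported 147 and 81. The share of the depleted set found in each control IP list was 70.8% with sites under a rate of 100%, and 31.3% and 31.7% in control IP 1 and 2 with identical start and end, against 21.1% in each as reported. Both settings can move regions listed in both genotypes into the depleted set. Depth was not known, so a site absent from a list may be an RNA below the caller's threshold. Of the sets as reported, 8 regions of the depleted set and 1 of the control set lay within 1 kb of a site of the other genotype.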

Other observations

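Regions outside the 3 sets numbered 202, of which 64 were in 3 lists, 11 in 1 depleted and 1 control list, and 127 in 1 list. Among those in both depleted lists and 1 control list was a second region of Eya1, an inner ear transcription factor gene, with folds of 4.52 and 4.32 in depleted IgG 1 and 2 and 3.07 in control IgG 1. The keratins Krt14 (67.3) and Krt17 (56.1) and a second region of Krt5 (112) were in control IgG 2 alone.

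The mitochondrial genome gave few sites. A predicted mitochondrial gene had a region of 1435 bp in both depleted lists and neither control list, with folds of 46.02 and 43.86 and the lowest false discovery rate of both. The complex I subunit gene mt-Nd5 had a site of 1216 bp in control IgG 1 alone, with a fold of 188, also at the lowest rate of its list. The heat shock genes Hspa1a (57.7 and 16.9) and Hspa1b (23.5 and 16.9), near-identical copies, were in the control set with regions of 733 and 1238 bp and no IP site. The growth regulator Dlk1 (80.8 and 44.9) and the zinc finger gene Peg3 (24.6 and 12.6) were in the control set too. The neural progenitor genes Nes (33.3 and 17.8 in depleted IgG, 45.2 and 47.2 in control IgG) and Msi1 (6.58 and 7.43 in depleted IgG, 4.03 and 4.09 in control IgG) were in all 4 lists, each with a site in depleted IP 1 and in no other IP list. The genes of these paragraphs were chosen after their values were seen.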
